A study of Homo sapiens with 5 samples.

Results

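The chaperonin CCT, also called TRiC, is a folding machine of the cytosol, and the genes of its 8 subunits, TCP1, CCT2, CCT3, CCT4, CCT5, CCT6A, CCT7 and CCT8, were followed across the transcriptomes of tumour cells embedded in collagen. The subunits were found by an exact match of the gene symbol, and all 8 were present among the 27189 genes listed for each of the 5 libraries. HT1080, an established human fibrosarcoma line, had been kept for 24 h in type I collagen at 2 mg/ml. At 10 cells/mm3 the cells received no cytokine (LD), recombinant IL-6 (IL-6), recombinant IL-8 (IL-8) or both cytokines mixed at a ratio of 5 to 2 (RM), and at 50 cells/mm3 they received no cytokine (HD). Each condition was 1 library, so no difference below has a replicate check, no p-value is given, and the 95% intervals cover the counting of reads only.

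CCT consists of stacked back-to-back rings, each assembled from 1 copy of every subunit, and it folds newly made actin and tubulin inside its cavity with the energy of ATP. Prefoldin hands unfolded actin and tubulin to the rings, and phosducin-like proteins act as co-chaperones of CCT. Because the subunits enter the ring in equal number, the levels of their transcripts can be read both as a sum and as a make-up, and migrating cells rely on actin and tubulin for their protrusions.

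The libraries did not carry equal information. The 4 low-density libraries held 5096134 to 6838104 reads for IL-6, IL-8 and RM and 7118545 for LD, whereas HD held 926376. Between 76.9 and 79.6% of the reads at low density, and 51.5% in HD, fell on the ribosomal RNA gene RNA5-8S5. The 8 CCT genes together had 3681 reads in LD, 124 in HD, and 2207, 1968 and 2168 in the IL-6, IL-8 and RM libraries. HD also stood apart in its content, with at least 1 read on 20113 genes against 13469 to 15080 in the others. HT1080 is a mesenchymal line although 1 label calls the cells epithelial, and all 7 mesenchymal markers on the list had reads in every library, with a summed level of 2429.3 to 4286.0 TPM at low density and 617.1 TPM in HD. The epithelial markers summed to between 2.3 and 28.5 TPM at low density, where 1 or 2 of the 7 had reads and EPCAM had 0 reads in all 4 libraries, and to 84.0 TPM in HD, where 6 of the 7 had reads, EPCAM among them with 3. Of the 8 endothelial and blood cell markers, 3 had reads in each low-density library, with sums of 145.9 to 166.6 TPM, and 8 had reads in HD, with a sum of 265.2 TPM. Most of the low-density sum was CD68, a macrophage marker also found in other cells, with 144.8 to 164.8 TPM there and 73.5 TPM in HD. The other 7 were near 0 at low density and made up most of the sum in HD, PTPRC, the pan-leukocyte marker, with 0 to 2 reads at low density and 36 in HD, or 100.5 TPM. The part of these differences in the CCT values of HD was not tested, and in bulk RNA fewer cells of a type and less RNA per cell cannot be told apart.

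The sequence in front of the start sites is shown first for CCT2, CCT8 and CCT4, which with CCT5 took a smaller share of the CCT reads in RM than in LD beyond counting error, and then for TCP1 and CCT3, which took a larger share beyond counting error. Each line holds the 250 bases before the RefSeq start on GRCh38.p14, written 5′ to 3′ on the strand of the gene, and capitals mark every match, none of them overlapping, to 5 short motifs on either strand: the CCAAT box (CCAAT), the GC box (GGGCGG), the E-box (CACGTG), the heat shock element core (GAANNTTC) and the ETS core (CGGAAG).
CCT2 (chr12:69585209-69585458, plus strand): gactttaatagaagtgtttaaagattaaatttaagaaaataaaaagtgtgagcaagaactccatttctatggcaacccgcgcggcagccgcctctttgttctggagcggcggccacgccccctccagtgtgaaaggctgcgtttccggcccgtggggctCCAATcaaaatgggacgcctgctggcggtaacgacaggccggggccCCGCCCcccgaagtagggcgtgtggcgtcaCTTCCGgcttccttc
CCT8 (chr21:29073649-29073898, minus strand): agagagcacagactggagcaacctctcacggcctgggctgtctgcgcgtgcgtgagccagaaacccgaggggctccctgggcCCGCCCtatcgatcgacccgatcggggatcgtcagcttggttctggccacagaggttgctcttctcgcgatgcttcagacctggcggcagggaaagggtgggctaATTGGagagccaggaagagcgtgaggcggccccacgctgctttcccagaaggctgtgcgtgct
CCT4 (chr2:61888672-61888921, minus strand): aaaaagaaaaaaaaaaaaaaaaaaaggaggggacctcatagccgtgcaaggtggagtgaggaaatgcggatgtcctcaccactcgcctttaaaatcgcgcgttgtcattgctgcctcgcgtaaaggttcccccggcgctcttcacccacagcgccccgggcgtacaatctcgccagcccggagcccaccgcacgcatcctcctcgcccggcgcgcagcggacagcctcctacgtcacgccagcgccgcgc
TCP1 (chr6:159789603-159789852, minus strand): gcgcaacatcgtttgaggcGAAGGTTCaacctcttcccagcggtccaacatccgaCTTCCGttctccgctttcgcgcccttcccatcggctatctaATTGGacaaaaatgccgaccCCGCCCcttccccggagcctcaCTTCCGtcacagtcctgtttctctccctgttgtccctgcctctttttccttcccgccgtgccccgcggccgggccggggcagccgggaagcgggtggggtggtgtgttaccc
CCT3 (chr1:156338293-156338542, minus strand): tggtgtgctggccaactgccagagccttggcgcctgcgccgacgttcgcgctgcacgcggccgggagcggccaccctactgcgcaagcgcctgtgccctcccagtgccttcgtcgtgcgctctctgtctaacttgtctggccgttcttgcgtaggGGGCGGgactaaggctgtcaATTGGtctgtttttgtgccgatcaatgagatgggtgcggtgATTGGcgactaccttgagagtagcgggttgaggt
A window was found for 7 of the 8 subunits, with no entry for CCT6A. The start used for CCT5 lies 616 bases inside its gene, so its window is counted with the others but not shown. A CCAAT box was present in 4 of the 7 windows (TCP1, CCT2, CCT3 and CCT8) and in 33.0% of all 27305 promoter windows of this length. The same 4 genes carried a GC box, found in 42.2% of all windows. The ETS core stood in the windows of TCP1, CCT2, CCT5 and CCT7, against 16.7% of all windows. Only TCP1 held a heat shock element core (5.85% of all windows), and none of the 7 held an E-box (6.46%). CCT4, the subunit that was lowest in IL-8, in RM and, on 1 read, in HD, had none of the 5 motifs. CCT2, the most abundant subunit in LD, had a CCAAT box, a GC box and an ETS core within 91 bases of its start. The number of matches did not follow the order of levels in LD. TCP1, the lowest there at 54.9 TPM, had the most with 5, and CCT7, next after CCT2 at 299.1 TPM, had 1. The motifs were picked after the sequences had been seen, and a match describes letters and not a bound site.

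Transcript levels are given in TPM, that is, transcripts per 1000000 corrected for transcript length, which allows subunits to be compared with each other. CCT2, the beta subunit, which also serves as a receptor for the autophagy of protein aggregates, reached 482.5, 444.4, 268.5, 255.6 and 22.0 TPM in the order LD, IL-6 alone, IL-8 alone, RM and HD, from 1291, 817, 536, 662 and 10 reads. It was the most abundant subunit in LD, IL-6 and RM and only the sixth in HD. CCT7, the eta subunit, stood at 299.1, 226.7, 336.6, 225.2 and 83.5 TPM in the same order of libraries, from 705, 389, 571, 450 and 26 reads. Its level in IL-8 was the highest of the 5 and made it the leading subunit there, as it also was in HD. For CCT3, the gamma subunit, the values were 184.1, 97.2, 117.2, 159.6 and 41.1 TPM, from 524, 192, 245, 439 and 20 reads. RM thus came closer to LD than either single cytokine did for this subunit.

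The other 5 subunits formed a lower tier. CCT8, the theta subunit, was measured at 80.2, 84.4, 55.4, 35.7 and 14.3 TPM, from 206, 148, 103, 89 and 6 reads, and CCT5, the epsilon subunit, at 73.4, 74.0, 51.2, 36.2 and 24.3 TPM, from 351, 243, 182, 167 and 20 reads. Both were alike in LD and IL-6, lower in IL-8 and lower again in RM on this scale. CCT4, the delta subunit, which like CCT5 can form rings by itself in the test tube, had 59.5, 60.8, 37.4, 23.6 and 1.91 TPM. Its reads numbered 199, 134, 94, 80 and 1, so the HD value rests on a single read and has an exact Poisson interval of 0.0485 to 10.7 TPM. CCT6A, the zeta subunit, had 60.7, 67.8, 43.9, 34.3 and 47.9 TPM, from 218, 166, 121, 118 and 28 reads, and was the one subunit whose HD level lay within the range of the other libraries. TCP1, the alpha subunit that gave the complex its name, had 54.9, 51.6, 45.9, 51.5 and 24.2 TPM, from 187, 118, 116, 163 and 13 reads. Across the 4 low-density libraries TCP1 moved least of the 8 on the TPM scale, and only HD was low.

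**Figure D1:**
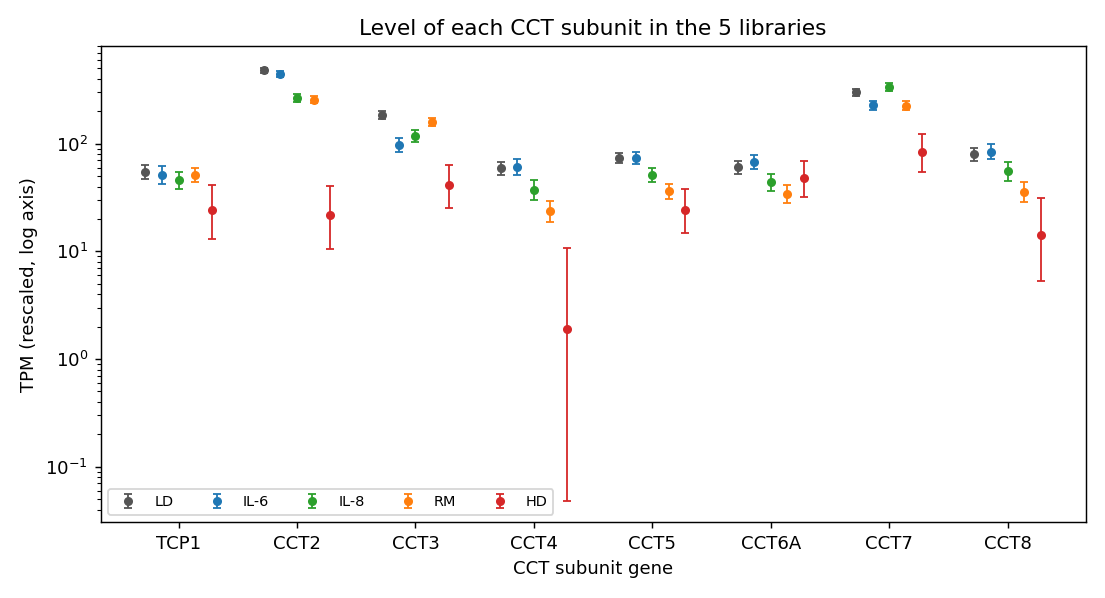
Level of each CCT subunit in the 5 libraries, as TPM on a log axis. Points are single libraries and bars are exact Poisson 95% intervals of the reads, covering counting error only. HD is the lowest library for every subunit except CCT6A, for which RM is the lowest at 34.3 TPM, and the bar of CCT4 in HD spans 0.0485 to 10.7 TPM.

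The transcripts were far from equal in amount although the proteins are used in equal number. The highest subunit exceeded the lowest 8.79-fold in LD and 10.8-fold in RM, with 8.61-fold for IL-6 and 8.99-fold for IL-8. In LD the steps from CCT2 to CCT7 (ratio 1.61, interval 1.47 to 1.77), from CCT7 to CCT3 (1.62, 1.45 to 1.82) and from CCT3 to CCT8 (2.3, 1.95 to 2.71) each lay beyond counting error. Below them CCT8 and CCT5 did not differ beyond counting error, and neither did CCT6A, CCT4 and TCP1 as neighbours, with only the step from CCT5 to CCT6A (1.21, 1.02 to 1.44) between the groups. CCT2, CCT7 and CCT3 were the top 3 in all 4 low-density libraries and held 69.4% of the CCT TPM in IL-6, 74.6% in LD, 75.5% in IL-8 and 77.9% in RM. In IL-8 CCT7 passed CCT2 by a ratio of 1.25 (1.11 to 1.41). In RM TCP1 moved from the last place to the fourth, above CCT5 by a ratio of 1.42 (1.14 to 1.77). The order in LD was kept fully in IL-6 (Spearman's rho 1.0 over the 8 subunits) and less in IL-8 (0.9), RM (0.74) and HD (0.26), as a description of single libraries normalised to their own totals. No neighbouring pair in HD differed beyond counting error, and the 43.6-fold gap between CCT7 and CCT4 there includes the single read of CCT4.

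**Figure D2:**
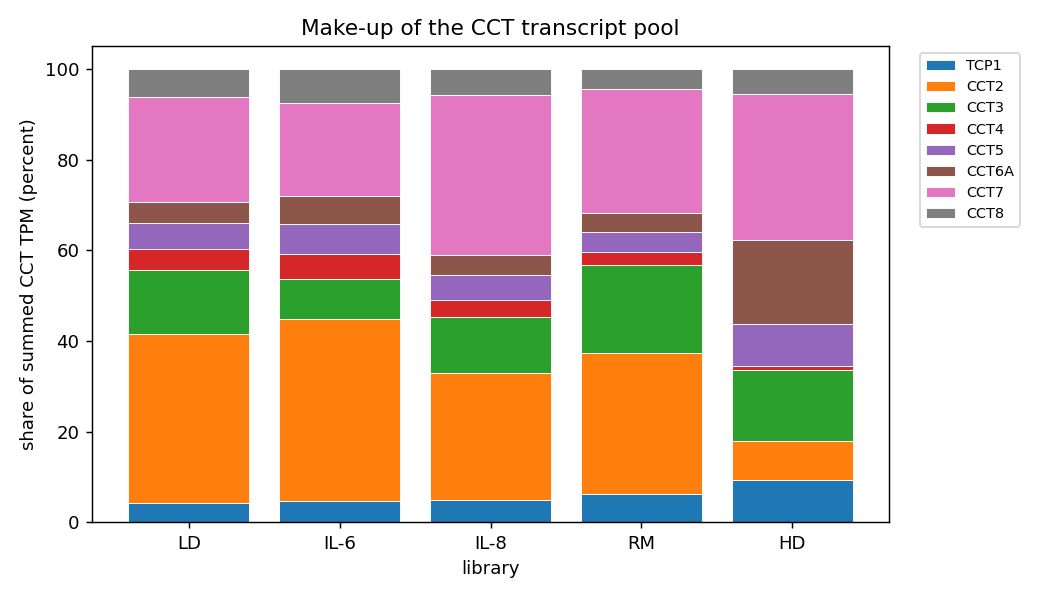
Make-up of the CCT transcript pool, as the percent of the summed CCT TPM held by each subunit in each library. CCT2, CCT3 and CCT7 together take 69.4 to 77.9% at low density and 56.5% in HD, where CCT6A takes 18.5% and CCT2 8.5%.

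Other complexes were set beside CCT to show how even its subunit levels were. The coefficient of variation of TPM over the 8 CCT subunits was 96.0% in LD, 98.0% with either cytokine alone, 93.2% in RM and 77.5% in HD. Over the 14 subunits of the 20S proteasome core, which degrades proteins, it ranged from 120.2 to 251.0%. The 8 listed genes of the Arp2/3 complex, which nucleates branched actin, gave 117.3 to 125.9%, and the 6 prefoldin genes 132.3 to 209.0%. CCT had the lowest value of the 4 complexes in each library, with 1 value per complex and library and no test of the difference. By the standard deviation of log2(TPM + 1), however, HD was the least even library for CCT, at 1.45 against 1.06 to 1.36 in the others. The HD values rest on 124 reads.

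**Figure D3:**
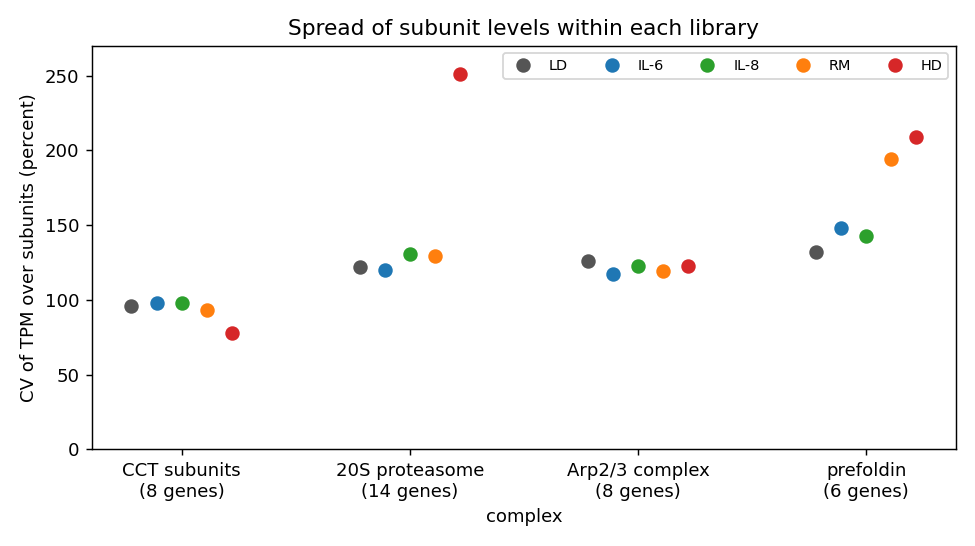
Coefficient of variation (CV, percent) of TPM over the subunits of 4 complexes, with 1 point per library. CCT lies between 77.5 and 98.0%, below the lowest point of the other complexes at 117.3%.

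The first question was whether each cytokine given alone changed CCT transcripts in sparse cells. With IL-6 the subunits stayed near LD apart from CCT3, which was 1.89-fold lower (1.6 to 2.25), and CCT7, which was 1.32-fold lower (1.16 to 1.5). On the log2(TPM + 1) scale, used for all differences, no subunit differed from LD by 1 log2 unit or more, the size taken here as a change. Among the 21163 genes tested, 7.47% were lower and 9.84% higher to that degree. Single differences ran from -0.91 for CCT3 to 0.16 for CCT6A, with a median of -0.04 beside 0.0 over all genes tested. The 2 subunits below LD beyond counting error compare with 10.7% of all genes tested. The summed CCT level had a ratio to LD of 0.855 (0.811 to 0.902), or -0.23 on the log2 scale, and was lower under all 6 scalings. Among the CCT reads themselves, a comparison that does not depend on how libraries are scaled, the odds of a read coming from CCT3 were 0.574 times those in LD (0.48 to 0.685), as CCT3 took 8.7% of the CCT reads in place of 14.2%. The only other subunit beyond counting error was CCT6A, with an odds ratio of 1.29 (1.04 to 1.6). Such odds are set against the other CCT reads, so a fall of 1 subunit raises those of the rest.

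With IL-8 the picture was broader but the size small. CCT2 was 1.8-fold lower than in LD (1.62 to 1.99), CCT4 1.59-fold lower (1.24 to 2.05) and CCT3 1.57-fold lower (1.35 to 1.84), whereas CCT7 was higher by a ratio of 1.13 (1.01 to 1.26), though at -0.07 log2 units once reads were drawn down to equal depth. No subunit reached 1 log2 unit in either direction (16.4% of all genes were lower and 7.99% higher). Counting error was exceeded downwards by 6 subunits, against 20.1% of all genes tested and 36.2% of the 7380 genes with a mean of at least 10 TPM, the range in which CCT lies, and upwards by CCT7 (9.37% of all genes tested). The summed level gave a ratio of 0.739 (0.699 to 0.78), a log2 ratio of -0.44 that became 0.04 with median-ratio size factors and -0.1 with TMM factors, so its direction depends on the scaling. CCT2, CCT3, CCT4, CCT5 and CCT8 were lower under each of the 6 scalings tried. With median-ratio factors, however, CCT5 and CCT8 were near LD, at -0.05 and -0.06. CCT3, CCT4 and CCT2 stood at -0.18, -0.19 and -0.37. Within the CCT reads, CCT7 took 29% in place of 19.2% in LD, with an odds ratio of 1.73 (1.52 to 1.96), while CCT2 took 27.2% in place of 35.1%, with an odds ratio of 0.693 (0.613 to 0.783). The remaining 6 subunits kept their odds within counting error.

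RM addressed whether both cytokines together acted differently from either alone. CCT4, CCT8 and CCT5 were the subunits furthest below LD, at 2.52-fold (1.93 to 3.31), 2.24-fold (1.74 to 2.91) and 2.03-fold (1.68 to 2.45). TCP1 and CCT3 stayed closest to LD, with differences of -0.09 (-0.4 to 0.22) and -0.2 (-0.39 to -0.02). CCT4 (-1.3) and CCT8 (-1.14) passed 1 log2 unit, which makes 2 of 8 subunits where 20.4% of all genes tested did. CCT5 lay at the threshold with -1.0 after rounding and just short of it before, followed by CCT2 (-0.91), CCT6A (-0.81) and CCT7 (-0.41). All 8 differences were below 0 on the TPM scale and 7 lay beyond counting error, where 25.1% of all genes and 42.8% of those with a mean of at least 10 TPM did so downwards. The median of the subunits was -0.86, beside 0.0 over all genes tested and -0.38 over the 7380 genes with a mean of at least 10 TPM, and 26.3% of those 7380 genes were lower by at least 1 log2 unit.

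The direction of the sum in RM depended on the scaling. Summed CCT was 1.57-fold lower than in LD (1.49 to 1.66) on the TPM scale, a log2 ratio of -0.66, but 0.1 with median-ratio size factors and -0.08 with TMM factors, and under both of these no subunit passed 1 log2 unit. The split over all genes moved in the same way, from 6.44% higher and 20.4% lower to 13.6% higher and 11.8% lower with median-ratio size factors and 11.3% higher and 13.4% lower with TMM factors. CCT2, CCT4, CCT5, CCT6A and CCT8 were below LD under all 6 scalings, whereas TCP1, CCT3 and CCT7 were above it under median-ratio and TMM factors. With median-ratio factors CCT6A and CCT2 were only slightly below LD, at -0.07 and -0.16. The make-up is free of this choice. Relative to the other CCT reads, TCP1 (odds ratio 1.52, 1.21 to 1.9) and CCT3 (1.53, 1.33 to 1.76) gained on LD. CCT4 (0.67, 0.508 to 0.879), CCT8 (0.722, 0.553 to 0.936), CCT5 (0.792, 0.649 to 0.963) and CCT2 (0.814, 0.725 to 0.913) lost. CCT6A and CCT7 held their place within counting error.

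**Figure D4:**
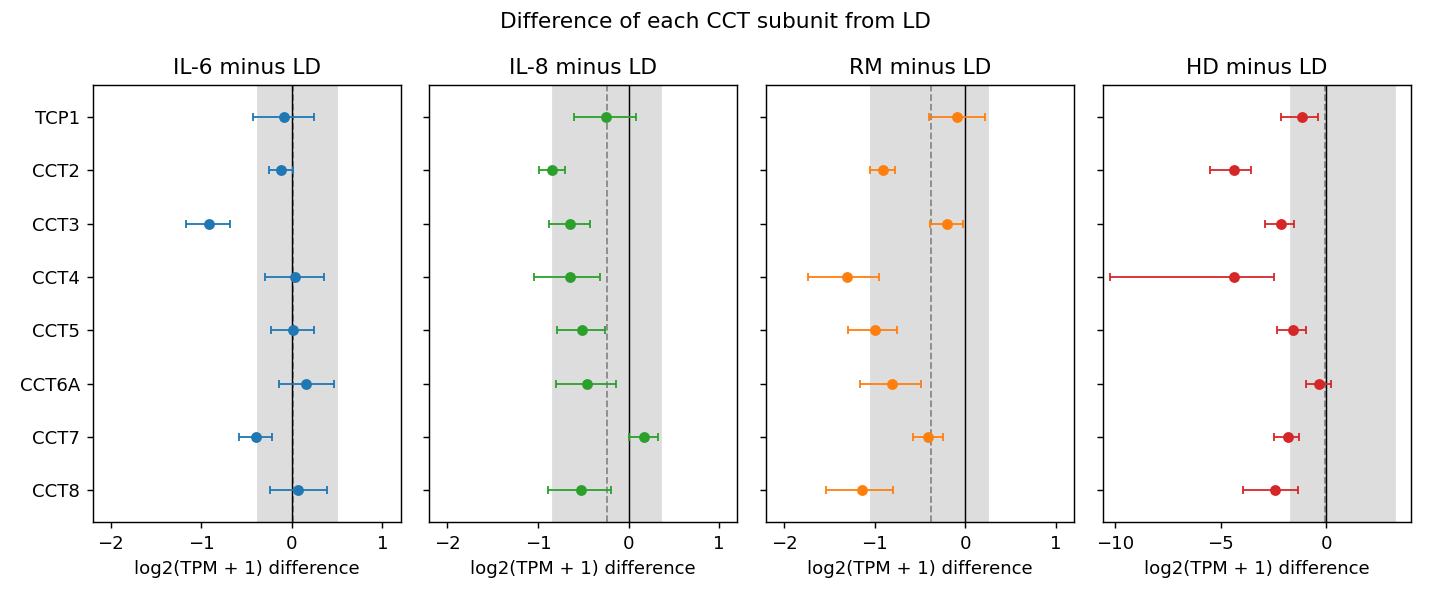
Difference of each CCT subunit from LD in log2(TPM + 1), 1 panel per library. Bars are exact 95% counting intervals of the TPM ratio in log2 units, taken without the added 1. The grey band is the middle 50% and the dashed line the median of the 7380 genes with a mean of at least 10 TPM, and the HD panel has a wider axis. In RM the points run from -1.3 for CCT4 to -0.09 for TCP1, with TCP1, CCT3 and CCT7 above 0 under 2 other scalings, and in HD from -4.39 for CCT2 to -0.34 for CCT6A.

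Set directly against the single cytokines, RM differed most in CCT4 by level on the log2(TPM + 1) scale (-1.33 against IL-6 and -0.64 against IL-8) and most in CCT3 by the odds among the CCT reads. CCT3 was higher in RM than in IL-6 by a ratio of 1.64 (1.38 to 1.96) and higher than in IL-8 by a ratio of 1.36 (1.16 to 1.6), while CCT4, CCT5 and CCT8 were lower in RM than in both. Against IL-6, CCT4 (-1.33), CCT8 (-1.22) and CCT5 (-1.01) passed 1 log2 unit, or 3 of 8 subunits where 22.7% of all genes did, and none passed against IL-8 (14.9%). On the TPM scale no subunit was higher by as much in either comparison (6.34 and 9.87% of all genes). With median-ratio and TMM factors CCT3 passed 1 log2 unit upwards against IL-6, at 1.48 and 1.34. CCT4 (-0.58 and -0.71), CCT8 (-0.46 and -0.6) and CCT5 (-0.25 and -0.39) then fell short of it downwards. The shares of all genes were not computed for these factors. The comparisons with IL-6 and IL-8 share the RM library, as those above share LD. The summed CCT level gave -0.43 against IL-6 and -0.22 against IL-8 on the TPM scale, and both turned positive with median-ratio size factors (0.34 and 0.06) and with TMM factors (0.2 and 0.02). CCT3 was above both single cytokines under all 6 scalings, and its odds among the CCT reads were 2.66 times those in IL-6 (2.22 to 3.21) and 1.79 times those in IL-8 (1.5 to 2.13). CCT7 went the other way against IL-8, with an odds ratio of 0.641 (0.554 to 0.741).

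**Figure D5:**
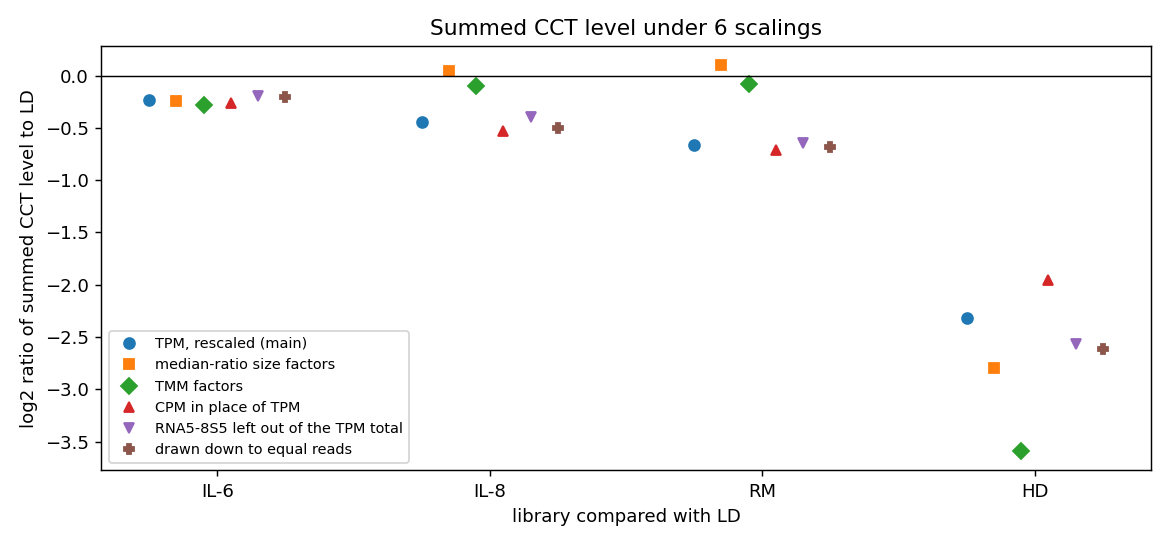
Log2 ratio of the summed CCT level of each library to LD under 6 ways of scaling the libraries. HD lies below 0 under every scaling, from -3.59 to -1.95, whereas IL-8 and RM lie above 0 with median-ratio size factors (0.04 and 0.1).

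HD was the denser culture, without added cytokine. Because HD also differed from LD in depth, RNA5-8S5 share, genes with a read and markers, density cannot be told apart from these. CCT2 was 21.9-fold lower in HD than in LD (11.9 to 45.8), CCT8 5.6-fold lower (2.53 to 15.4), CCT3 4.48-fold lower (2.87 to 7.4) and CCT7 3.58-fold lower (2.42 to 5.52). CCT4, with its 1 read, had a ratio to LD of 0.0322 with an interval of 0.000811 to 0.181. CCT6A differed by -0.34, within counting error, and by -0.8 with median-ratio and -1.57 with TMM factors. The summed CCT level was 4.99-fold lower (4.17 to 6.02), a log2 ratio of -2.32 that lay between -3.59 and -1.95 under the other scalings. In raw terms 2.76 of every 10000 reads outside RNA5-8S5 came from CCT genes in HD, against 22.4 in LD and 15.1 in RM.

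At least 1 log2 unit separated 7 of the 8 subunits from LD downwards, all but CCT6A, and the same 7 lay beyond counting error, where 17.9% of all genes tested and 36.2% of those with a mean of at least 10 TPM were lower to that degree and 14.2% of all genes were lower beyond counting error. None was higher, where 61.9% of all genes were. The median difference of the subunits was -1.98, beside a median of 1.86 over all genes tested and -0.05 over the genes with a mean of at least 10 TPM. Both sets admit genes through a high HD value alone, and how far this moves these medians and shares was not tested. CCT5 (-1.55) and TCP1 (-1.15) were the least lowered of the 7. Within the CCT reads CCT6A took 22.6% in HD and 5.92% in LD, an odds ratio of 4.63 (2.86 to 7.3), and TCP1 (2.19, 1.11 to 3.99) and CCT5 (1.82, 1.06 to 3.01) also gained. CCT2 went from 35.1 to 8.06% of the CCT reads (0.162, 0.0756 to 0.311) and CCT4 from 5.41 to 0.806% (0.142, 0.00356 to 0.817). With the CCT reads as the whole, the loss of CCT2 raises the odds of the others, and odds without CCT2 were not computed. CCT3, CCT7 and CCT8 kept their odds within counting error.

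RM was made to carry the cytokines of the dense cultures at low density, which makes HD against RM the matching comparison. HD was lower than RM by at least 1 log2 unit in 6 subunits (13.6% of all genes) and higher in none (67.5%), with CCT2 the furthest at 11.6-fold (6.27 to 24.3). On the TPM scale CCT5 (-0.55, -1.32 to 0.1) and CCT6A (0.47, -0.17 to 1.09) did not differ beyond counting error. With median-ratio and TMM factors CCT5 stood at -1.75 and -2.31, and CCT6A turned to -0.73 and -1.32. With CPM CCT5 was at -0.17 and CCT6A at 0.77. The summed level was 3.17-fold lower in HD (2.64 to 3.83). CCT6A and CCT5 had higher odds among the CCT reads of HD than of RM, 5.06 (3.07 to 8.14) and 2.3 (1.32 to 3.86), and CCT2 lower odds, 0.2 (0.0926 to 0.384). Each set against the same LD library, RM and HD had odds ratios of 1.52 and 2.19 for TCP1, 0.814 and 0.162 for CCT2, and 0.67 and 0.142 for CCT4. For CCT3 they were 1.53 and 1.16, the second within counting error, and for CCT6A 0.914 and 4.63, the first within counting error.

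Some CCT reads cannot be assigned with certainty. CCT6A has near-identical copies, and the pseudogene CCT6P3 had 2 to 4 reads in each low-density library and 16 in HD, a ratio of HD to LD of 22.8 (6.54 to 122.4). CCT6P1, another pseudogene, had 0 to 4 reads, and CCT6B, the testis form of the zeta subunit, 0 to 2. The HD level of CCT6A is therefore uncertain, since reads can be split between these copies. CCT8L2, a CCT8-like gene, had 4 reads in HD and 0 in the others.

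Reads from opposite strands are a further uncertainty, because the library kit does not mark strand. The GENCODE annotation places a protein-coding start on the opposite strand within 1000 bases of the start of 5 of the 8 subunits, TCP1, CCT4, CCT5, CCT6A and CCT7, and of 13.0% of all 19969 protein-coding genes. TCP1 also overlaps ACAT2, with 62 reads in LD and 5 in HD, and CCT3 overlaps TSACC, with 1 and 3, both on the opposite strand. These neighbours were looked at after the CCT values had been seen. FAM173B, next to CCT5, had 14 reads in LD and 138 in HD, a TPM ratio of 57.7 (33.2 to 108.2). PSPH, a serine synthesis enzyme next to CCT6A, had 7 reads in LD and 31 in HD, a ratio of 36.0 (15.6 to 96.9). PRADC1, next to CCT7, had 67 reads in LD and 1 in HD, while MRPL18 next to TCP1 and COMMD1 next to CCT4 had 20 and 21 reads in LD and 0 in HD. CCT5 and CCT6A lie beside the neighbours that were higher in HD. By at least 1 log2 unit, 61.9% of all genes tested were higher there and 17.9% lower. CCT5 and CCT6A were among the 3 subunits whose odds among the CCT reads were higher in HD beyond counting error, with CCT2 and CCT4 lower. TCP1, the other of the 3, lies beside MRPL18, with 0 reads in HD. Whether reads of these neighbours entered the CCT values was not tested.

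The proteins that CCT folds were read from a list of actin and tubulin genes, 11 of whose 13 members were tested. None differed from LD by 1 log2 unit in IL-6, and in IL-8 TUBB2A was higher by 1.16. In RM 2 of the 11 were lower by at least 1 log2 unit and 1 was higher. Of all genes tested, 20.4% were lower and 6.44% higher. In HD all 11 were lower to that degree, where 17.9% of all genes were lower and 61.9% higher. Of the genes with a mean of at least 10 TPM, 26.3% were lower in RM and 36.2% in HD. ACTB, the beta-actin of the cytoskeleton, had 2725.5, 2642.9, 2065.8, 2511.5 and 569.2 TPM in the order used above, and ACTG1, the gamma-actin, 2500.7, 2151.5, 2580.5, 2563.0 and 490.1 TPM. Both were thus close to LD in RM, at -0.12 and 0.04, and low in HD, at -2.26 and -2.35. TUBA1A, an alpha-tubulin, had 484.8, 613.6, 856.2, 1104.3 and 164.0 TPM, with RM 1.19 log2 units above LD. TUBA4A, another alpha-tubulin, differed by -1.55 in RM, and TUBG1, the gamma-tubulin of the centrosome, by -1.36. In HD the clients ranged from -3.28 for TUBA1B to -1.45 for TUBA1C, with a median of -2.26 beside -1.98 for the CCT subunits. The 11 were below -1 in HD under the TPM, median-ratio and TMM scalings alike, whereas their median in RM turned from -0.15 to 0.59 with median-ratio and 0.41 with TMM factors. Tubulin genes are near-identical in sequence, so their single values are uncertain.

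Further clients behaved less evenly. Of 10 listed clients outside the cytoskeleton, 5 were lower by at least 1 log2 unit in RM and none higher (20.4 and 6.44% of all genes). In HD 7 were lower to that degree and 1 higher (17.9 and 61.9%). CDC20, the activator of the anaphase-promoting complex, had 114.6, 125.0, 130.6, 35.5 and 62.4 TPM, with a difference of -1.66 in RM. STAT3, the transcription factor downstream of IL-6, had 72.3, 39.3, 18.8, 30.7 and 5.52 TPM. On this scale it was below LD in every other library and lowest in HD, at -3.49. The cyclin gene CCNE1 had 30 reads in LD and 0 in IL-8, RM and HD, which with a floor of 3 reads makes it at least 7.71-fold lower in IL-8, 9.61-fold in RM and 1.3-fold in HD in reads per 1000000. VHL, the tumour suppressor that marks HIF for degradation, was the one client higher by at least 1 log2 unit in HD, with 53.4 TPM against 4.62 in LD, a difference of 3.27.

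The cofactors that work with CCT also had mixed values. By at least 1 log2 unit, 3 of the 6 prefoldin genes were lower in RM, 2 of them beyond counting error, and 3 in HD. To that degree 20.4 and 17.9% of all genes were lower, and no prefoldin gene was higher in either (6.44 and 61.9%). PFDN2 had 65.2, 37.2, 25.7, 18.5 and 15.1 TPM, stepping down from LD in each cytokine library, while PFDN5, known also as a binder of MYC, had 210.3, 164.0, 164.7, 278.9 and 167.0 TPM and was higher in RM by 0.41. PFDN1 had 83 reads in LD and 0 in HD, at least 3.6-fold lower. PDCL3, a phosducin-like co-chaperone, had 31 reads in LD and 6 in RM, a difference of -2.09, and PDCL differed by 1.06 in HD. Tubulin cofactors assemble tubulin dimers after CCT has released the monomers. Of the 6, 2 were lower and 1 higher in RM by at least 1 log2 unit (20.4 and 6.44% of all genes). In HD 3 were lower to that degree (17.9%), 2 of them beyond counting error. TBCD had 62.1, 50.0, 12.0, 25.1 and 6.87 TPM, with a difference of -2.28 in IL-8, and ARL2, the small GTPase that works with it, had 153.6, 258.8, 224.0, 364.3 and 197.5 TPM, with RM higher by 1.24.

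HSPD1, the mitochondrial chaperonin related to CCT by its fold, had 143.1, 144.9, 78.8 and 57.5 TPM in LD, IL-6, IL-8 and RM, with differences from LD of -1.3 in RM and -2.22 in HD. HSPE1, its co-chaperonin, had 31.9, 44.7, 23.1, 13.5 and 37.1 TPM and so was low in RM at -1.18 but not in HD. Neither gene passed 1 log2 unit in RM with median-ratio or with TMM factors. Of the complexes used for the spread, the proteasome and Arp2/3 were compared as well. By at least 1 log2 unit, 10 of 14 proteasome genes and 6 of 8 Arp2/3 genes were lower in HD (medians -1.61 and -2.24). To that degree 17.9% of all genes were lower, and 36.2% of those with a mean of at least 10 TPM. In RM 3 and 2 were lower, close to the 20.4% of all genes and 26.3% of that set. Low levels in HD were thus also found in other complexes, and no test set CCT apart from them. The counts of lower genes in RM given for these lists shrank with median-ratio size factors, to 0 of 11 actin and tubulin genes, 1 of 10 other clients, 1 of 6 prefoldin genes, 1 of 6 tubulin cofactors, 1 of 14 proteasome genes and 1 of 8 Arp2/3 genes. The counts of higher genes grew in 4 of these lists, from 1 to 2 actin and tubulin genes, 0 to 1 prefoldin genes, 1 to 3 proteasome genes and 0 to 2 Arp2/3 genes, and the RM medians turned from -0.37 to 0.36 for the proteasome, from -0.61 to 0.14 for Arp2/3 and from -0.44 to 0.12 for the tubulin cofactors.

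The genes most like the median CCT profile over the 5 libraries were found among 3591 genes with at least 10 reads in every library. They were U2SURP, a splicing factor, SERP1, a stress protein of the endoplasmic reticulum, ATP5D, a subunit of the ATP synthase, RPL4, a ribosomal protein, and DNAJC7, a co-chaperone, at root mean square distances of 0.06, 0.07, 0.08, 0.09 and 0.1 log2 units. RPL4, for example, had 843.1, 674.5, 532.5, 453.8 and 199.3 TPM. The CCT subunits themselves lay further from their own median profile, from 0.26 for CCT8 and 0.27 for CCT5 to 0.9 for CCT2 and 0.91 for CCT4, and 181 other genes were closer than CCT8. The list depended on HD, as none of the 5 genes remained when HD was left out and CIR1, PRPF38B, MFN2, LCP1 and CEP170 came first. With a pseudocount of 0.1, 4 of the 5 remained, and with at least 30 reads in every library 1 did, RPL4.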

How the data were processed

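Poly-A RNA of 5 cultures was amplified as cDNA and tagmented, and single-end reads of 50 bases were made. Per the submitters' processing notes, Bowtie2 2.3.1, RSEM 1.2.25, CASAVA 1.4 and FastQC were used with GRCh37/hg19. Annotation and settings are not given in the sources used here. The authors deposited an expected count for each gene, in whole numbers and not normalised, and a TPM value corrected for transcript length. The deposited TPM values summed to 934821 to 978521 and were rescaled to 1000000 per library.

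The data came from 1 experiment, and each group was 1 library taken from its label, so libraries were compared without a test. Differences were computed as log2(TPM + 1), which understates the change of low genes, over 21163 genes, those that reached 1 TPM in any library. Intervals on levels are exact Poisson intervals at 95%, and those on ratios exact conditional (Clopper-Pearson) ones at 95%. Intervals beside log2 differences are those of the TPM ratio in log2 units, without the added 1. Odds ratios are conditional estimates with exact conditional 95% intervals. Reads were amplified without molecular identifiers, so the intervals cover counting error only. The floor of 3 reads is 0.421 to 3.24 CPM. Promoter windows are from RefSeq and neighbouring genes from GENCODE, matched by symbol. Alternatives were pseudocounts of 0.1 and 5, median-ratio and TMM size factors, CPM, RNA5-8S5 left out, reads outside RNA5-8S5 drawn down to 449661, other filters on low values and each subunit left out. The search for like genes without HD and the scalings of single subunits and lists were chosen after seeing the data. Scripts were tested on simulated data.

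The subunits and gene lists were chosen with earlier results of these data known. Named were all 8 subunits, of each list the members with the highest and lowest difference among those with at least 20 reads and those that define it by role, and the 5 genes with the most similar profile. Some genes of the lists were not analysed here. Tools were edgeR 4.0.16 (TMM factors only) in R 4.3.3, and scipy 1.17.1, numpy 2.4.6 and pandas 2.3.3 in Python 3.11.15.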

Additional observations from a re-analysis of the deposited data

How the results depend on the processing

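The lower summed CCT level in HD held under all 6 scalings, while its sign in IL-8 and RM did not. With median-ratio size factors the log2 ratio was 0.04 for IL-8 minus LD, 0.1 for RM minus LD, 0.34 for RM minus IL-6, 0.06 for RM minus IL-8, -2.8 for HD minus LD and -2.89 for HD minus RM. With TMM factors it was -0.1, -0.08, 0.2, 0.02, -3.59 and -3.51. With CPM it was -0.53 for IL-8 minus LD, -1.95 for HD minus LD and -1.24 for HD minus RM, and with reads drawn down -2.61 for HD minus LD. The cause of these shifts was not tested. In RM the subunits lower by at least 1 log2 unit numbered 0 with median-ratio and with TMM factors, in place of 2, and 3 with a pseudocount of 0.1. In HD they numbered 8 with TMM factors and 7 under the other settings.

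The coefficient of variation over subunits, with each subunit left out in turn, ranged from 61.7 to 87.1% in HD, 79.7 to 110.2% in LD, 85.4 to 106.1% in RM, 92.4 to 110.4% in IL-8 and 63.5 to 112.4% in IL-6. The IL-6 value of 63.5% came without CCT2. The other 122 recomputed values for CCT kept their direction and moved by less than counting error, or by at most 1.5 times for counts and coefficients of variation.

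Over all genes, a pseudocount of 0.1 brought the number lower by at least 1 log2 unit from 1580 to 2877 in IL-6, from 3470 to 5487 in IL-8 and from 4317 to 6526 in RM, and the number higher from 2083 to 3914, 1691 to 2901 and 1362 to 2298. A pseudocount of 5 gave 512, 1297 and 1787 lower and 563, 717 and 739 higher. The 7380 genes with a mean of at least 10 TPM, fewer genes by construction, gave 550, 1443 and 1942 lower, 818, 812 and 744 higher, and 2902 higher in HD in place of 13091. Median-ratio factors gave 2713 higher in IL-8 and 2494 lower and 2875 higher in RM, and TMM factors 2826 lower and 2389 higher in RM and 5775 lower in HD in place of 3785.

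No paired analysis was possible because each condition was 1 library. HD, with 124 CCT reads, limits what can be read from single subunits: CCT4, CCT8 and CCT2 rest there on 1, 6 and 10 reads.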
